A study of Mus musculus with 18 samples.

Results

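Genes that mark early neural progenitors, or that belong to the PAX family of developmental regulators, were followed across all groups of the study: Sox1, Sox3, Sox4, Sox11, Pax3, Pax6, Pax8, Hes3, Hes5 and Nes. They were 10 of the 53801 genes in the count table, listed by name and matched by Ensembl identifier. Pax8 was chosen by its measured line-by-time difference in these libraries, so its values are a description and carry no test. Of the other 9 genes, 7 passed the filter on low counts and were tested, and Pax3 and Hes5 did not pass it. These 9, too, were listed with earlier results of these data known, a limit on their p-values and on the counts called.

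Bulk polyA RNA-seq was done on mouse embryonic stem cells (ESCs) in 18 libraries, 3 in each of 6 groups. WT cells were the E14 line (ES-E14TG2a). iEZR_CA cells were E14 cells carrying, by the PiggyBac transposon system, a doxycycline-inducible phosphomimetic ezrin followed by an IRES and mCherry, where ezrin is the linker between the plasma membrane and the actin cortex. Both lines were sampled on gelatin in 2i+LIF, which maintains the naive state (ESC, 0 h), and after transfer to N2B27 for 24 h, named T24, or 48 h, named T48. The comparison of the lines asks whether holding membrane tension high alters exit from naive pluripotency. iEZR_CA cells had doxycycline from about 16 h before exit and the labels mention no drug in WT cells, so effects of transgene, drug and line cannot be told apart. Whether the iEZR_CA line is 1 clone is not given in the sources used here. The lines were seeded and collected in parallel, and the labels name libraries by plate well only, so the replicate numbers below are names. The study describes the 3 replicates of a condition as independent and biological. The labels do not show how the replicates were separated. The p-values thus measure the spread between these samples, part of which may be technical.

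In the embryo, exit from naive pluripotency is followed by formative epiblast and then by neuroectoderm. SoxB1 factors (Sox1, Sox3 and the pluripotency factor Sox2) keep neural progenitors undifferentiated, and SoxC factors (Sox4, Sox11) act later and turn on neuronal genes. PAX proteins bind DNA through a paired domain and pattern the neural tube, eye, crest, kidney and thyroid. HES proteins are basic helix-loop-helix repressors, several of them switched on by the Notch receptor through the DNA-binding protein RBPJ, and Nes encodes nestin, an intermediate filament protein of neural progenitors.

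The sequences upstream of Hes5 and Pax8 are shown because Hes5 is the textbook Notch target of the set and Pax8 is the gene picked for its line-by-time difference. Both are the 250 bases before the RefSeq start (GRCm38.p6), 5′ to 3′ on the gene's strand. In the Hes5 sequence (chr4:154960673-154960922, plus strand) capitals mark TGGGAA, the core of the RBPJ binding motif, on either strand. In the Pax8 sequence (chr2:24475600-24475849, minus strand) capitals mark each CG dinucleotide.
Hes5: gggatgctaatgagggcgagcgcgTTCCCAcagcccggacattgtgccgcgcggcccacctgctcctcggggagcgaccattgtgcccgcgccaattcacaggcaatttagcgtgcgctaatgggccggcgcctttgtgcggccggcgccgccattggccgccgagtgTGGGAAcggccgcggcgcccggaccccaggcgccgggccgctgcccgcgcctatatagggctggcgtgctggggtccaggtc
Pax8: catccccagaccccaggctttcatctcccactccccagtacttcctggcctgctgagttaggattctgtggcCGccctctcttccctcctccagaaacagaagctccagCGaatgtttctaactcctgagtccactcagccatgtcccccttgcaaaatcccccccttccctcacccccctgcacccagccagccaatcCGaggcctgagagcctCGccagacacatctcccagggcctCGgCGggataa
The Hes5 window held 2 matches to TGGGAA, which began 226 and 82 bases before the start and did not overlap. The Sox4 window held 1 match, 100 bases before the start. The windows of Sox1, Sox11, Pax6 (2 starts), Pax8 and Nes held none, and 21.6% of 32851 mouse promoters of the same length held at least 1. Sox3, Pax3 and Hes3 were not matched. The Pax8 window had 6 CG dinucleotides and an observed-to-expected CpG ratio of 0.31, near the median of all promoters (0.37), against 1.0 for Hes5, 0.99 for Sox1, 0.81 for Sox11, 0.80 for Sox4, 0.69 for Nes and 0.65 and 1.06 for the Pax6 starts.

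Libraries held 10940752 to 33276622 counts on genes, and replicates differed by a common biological coefficient of variation of 2.98%. Ezr, in which reads of the endogenous gene and of the transgene cannot be told apart, was higher in every iEZR_CA library than in any WT library of the same stage, by 2.11 times at ESC, 2.70 times at T24 and 1.61 times at T48, with an exact two-sided permutation p of 0.1 at each stage, the smallest that 3 against 3 can give. All 8 mouse ES cell markers were detected in all groups. Their summed normalized count (the count divided by the library's size factor) ran from 132500 to 134600 in WT ESC, 57600 to 58280 in WT T24 and 23890 to 24600 in WT T48. In iEZR_CA it ran from 118400 to 119400, from 75120 to 75700 and from 30830 to 32110 at the same stages. The level of ES markers thus moved with both stage and line, and its part in the results below was not tested. In bulk RNA, fewer cells of a type and less RNA per cell cannot be told apart.

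Sox1 encodes one of the earliest factors of committed neuroectoderm and lies on chromosome 8 (12395295 to 12400126, plus strand, GRCm38) in 1 exon. Its normalized counts in WT were 111, 127 and 119 at ESC, 450, 439 and 374 at T24, and 393, 497 and 531 at T48. The iEZR_CA libraries gave 72.0, 85.4 and 72.8 at ESC, 163, 172 and 191 at T24, and 282, 260 and 284 at T48. Every iEZR_CA library lay below every WT library of its stage, and the WT libraries of T24 and T48 overlapped. Sox1 was lower in iEZR_CA, with a log2 fold change of -0.63 ± 0.14 (SE, n = 3 per group) at ESC, with an edgeR quasi-likelihood test, Benjamini-Hochberg adjusted p of 0.00016. The difference was -1.27 ± 0.09 at T24 (edgeR adjusted p = 2.8e-17) and -0.77 ± 0.08 at T48 (edgeR adjusted p = 2.8e-11). From ESC to T24, Sox1 rose by 1.82 ± 0.10 on the log2 scale in WT and by 1.18 ± 0.13 in iEZR_CA, and this difference in change passed the interaction test at -0.64 ± 0.17 (edgeR adjusted p = 0.0025). That call was lost when libraries were scaled by the spike-in sequences (edgeR adjusted p = 0.073, the highest of 6 alternatives, whose lowest was 0.0011), and it held with each of the 18 libraries left out. From T24 to T48, Sox1 rose in iEZR_CA by 0.64 ± 0.10 (edgeR adjusted p = 2.3e-07), while in WT the value of 0.13 ± 0.08 did not pass (edgeR adjusted p = 0.15). Without WT T48 replicate 1, the lowest of its group, that WT step was 0.28 (edgeR adjusted p = 0.0016, the lowest over the libraries left out, whose highest was 0.94). By T48 the change since ESC was 1.95 ± 0.10 in WT and 1.81 ± 0.12 in iEZR_CA, and the interaction did not pass (-0.14 ± 0.17, edgeR adjusted p = 0.55). The 958 tested genes of chromosome 8 had a median log2 fold change between the lines of 0.18 at ESC, 0.21 at T24 and 0.18 at T48, against -0.01, -0.002 and 0 over all tested genes, so Sox1 lay on the opposite side of its chromosome's median at each stage. The genes whose log2 values over the 18 libraries were most like those of Sox1, out of 12801 searched, were Crmp1 (Pearson r = 0.989), a protein of growing axons, Gm6087 (0.986) and Sinhcaf (0.985), a subunit of a SIN3 histone deacetylase complex. Crmp1 had group means of 194, 2330 and 3291 in WT and 52.3, 478 and 1160 in iEZR_CA. These coefficients share libraries and depth and are a description.

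Sox3, the X-linked SoxB1 gene (X, 60891366 to 60893430, minus strand, 1 exon), rose in steps in both lines and stayed lower in iEZR_CA. In WT its normalized counts were 71.9, 66.6 and 66.4 at ESC, 910, 819 and 774 at T24, and 2291, 2061 and 2303 at T48. The corresponding iEZR_CA values were 34.3, 39.3 and 42.0, then 504, 454 and 461, then 1050, 1045 and 1059. No neighbouring groups overlapped in the order of levels, in which iEZR_CA T48 stood between WT T24 and WT T48. The log2 fold change between the lines was -0.83 ± 0.17 at ESC (edgeR adjusted p = 1.8e-05), -0.85 ± 0.06 at T24 (edgeR adjusted p = 6.1e-21) and -1.08 ± 0.05 at T48 (edgeR adjusted p = 1.3e-31). The rise from ESC to T24 was 3.62 ± 0.08 in WT and 3.60 ± 0.11 in iEZR_CA, and their difference was -0.02, with a 95% interval of -0.41 to 0.37 (edgeR adjusted p = 0.96). Sox3 was thus lower in iEZR_CA already at ESC, and a difference in its rise was not detectable at this precision.

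Sox4, a SoxC gene on chromosome 13 (28948919 to 28953713, minus strand, 1 exon), had WT normalized counts of 71.9, 63.5 and 52.8 at ESC, 1065, 1014 and 881 at T24, and 1771, 1445 and 1593 at T48. Those of iEZR_CA were 43.2, 34.3 and 53.2, then 430, 351 and 393, then 904, 777 and 910. The groups overlapped at ESC and were separate at T24 and T48. The log2 fold change between the lines of -0.57 ± 0.30 at ESC did not pass (edgeR adjusted p = 0.13), while -1.37 ± 0.11 at T24 (edgeR adjusted p = 1.7e-08) and -0.91 ± 0.09 at T48 (edgeR adjusted p = 2.5e-07) did. The ESC difference passed under DESeq2, without the filter on low counts and in a fit of the 6 ESC libraries alone, where the adjusted p over 7 alternatives ran from 0.0029 to 0.21. Sox4 rose from ESC to T24 by 4.0 ± 0.15 in WT and 3.19 ± 0.20 in iEZR_CA, and the interaction of -0.81 ± 0.33 did not pass (edgeR adjusted p = 0.07) but did in 4 of 6 alternatives (0.00037 to 0.11), and without WT T24 replicate 3, WT T48 replicate 1 or 2, or iEZR_CA T48 replicate 2 (0.022 to 0.21 over the libraries left out). By annotation, 54.6% of the Sox4 exon bases are shared with Gm26735, a lincRNA on the opposite strand that had 0 counts in all 18 libraries, and whether counting used strand is not given in the sources used here, so the level of Sox4 is uncertain.

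Sox11, the other SoxC gene, with 1 exon on chromosome 12 (27334264 to 27342574, minus strand), had the largest line difference of the 4 SOX members at every stage. Its WT normalized counts were 59.6, 71.9 and 65.6 at ESC, 948, 1008 and 927 at T24, and 2421, 2442 and 2578 at T48. In iEZR_CA, Sox11 was at 25.5, 21.8 and 35.0, then 274, 297 and 280, then 1028, 991 and 1083. All WT libraries lay above the iEZR_CA libraries of their stage, and the libraries of iEZR_CA T48 overlapped those of WT T24. The log2 fold change between the lines was -1.34 ± 0.18 at ESC (edgeR adjusted p = 1.1e-09), -1.75 ± 0.06 at T24 (edgeR adjusted p = 9.3e-37) and -1.26 ± 0.04 at T48 (edgeR adjusted p = 2.1e-36). Sox11 rose from ESC to T24 by 3.84 ± 0.08 in WT and 3.43 ± 0.13 in iEZR_CA (interaction -0.42 ± 0.20, edgeR adjusted p = 0.10), and from T24 to T48 by 1.36 ± 0.04 and 1.85 ± 0.06. Over the whole 48 h the change was 5.21 ± 0.07 in WT and 5.28 ± 0.10 in iEZR_CA.

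**Figure D1:**
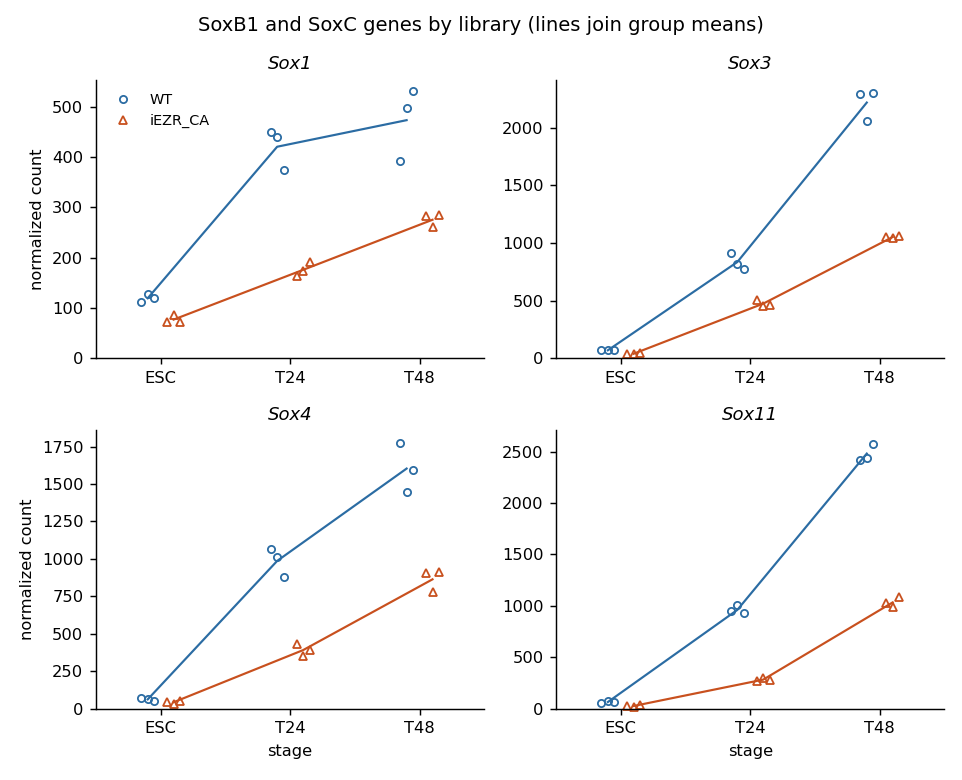
Normalized counts (vertical axis, linear, from 0) of Sox1, Sox3, Sox4 and Sox11 in each library at ESC, T24 and T48, with circles for WT, triangles for iEZR_CA and lines joining the means of 3 libraries. The iEZR_CA points lie below the WT points in all panels at T24 and T48, and iEZR_CA T48 libraries of Sox11 (991 to 1083) reach the range of WT T24 (927 to 1008).

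Pax6, a regulator of eye, forebrain and spinal cord (chromosome 2, 105668900 to 105697364, plus strand, 16 merged exons), rose and fell in both lines. In WT its normalized counts were 85.4, 63.5 and 86.0 at ESC, 226, 265 and 246 at T24, and 145, 157 and 154 at T48. The iEZR_CA values were 50.9, 49.4 and 71.4, then 221, 220 and 241, then 165, 167 and 140. The lines overlapped at every stage. Pax6 rose from ESC to T24 by a log2 fold change of 1.64 ± 0.11 in WT (edgeR adjusted p = 5.7e-21) and 2.02 ± 0.13 in iEZR_CA (edgeR adjusted p = 1.7e-22), and then fell by 0.69 ± 0.10 in WT (edgeR adjusted p = 1.4e-08) and fell by 0.51 ± 0.10 in iEZR_CA (edgeR adjusted p = 8.2e-06). Between the lines it was lower in iEZR_CA at ESC (-0.48 ± 0.16, edgeR adjusted p = 0.007). The difference at T24 was -0.10, with a 95% interval of -0.28 to 0.08 (edgeR adjusted p = 0.37), and that at T48 was 0.08, with an interval of -0.13 to 0.29 (edgeR adjusted p = 0.54). The change since ESC was larger in iEZR_CA at T48 by 0.56 ± 0.19 (interaction, edgeR adjusted p = 0.012), while at T24 the interaction of 0.38 ± 0.18 did not pass (edgeR adjusted p = 0.093) except without WT ESC replicate 2 or iEZR_CA ESC replicate 3 (0.022 to 0.31 over the libraries left out). Both the ESC call and the T48 interaction call changed with the ESC libraries: without WT ESC replicate 3 or iEZR_CA ESC replicate 2 neither passed (highest edgeR adjusted p of 0.081 and 0.083 over the libraries left out, lowest 0.0011 and 0.0025), and neither passed with spike-in scaling (edgeR adjusted p of 0.11 and 0.16, the highest over their alternatives, with lowest values of 0.0076 and 0.0099).

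Pax8, known for its part in thyroid and kidney, and part of the midbrain-hindbrain and otic programmes, lies on chromosome 2 (24420560 to 24475599, minus strand, 13 merged exons). Its WT normalized counts were 4.50, 3.83 and 4.26 at ESC, 410, 442 and 400 at T24, and 20.9, 36.3 and 21.3 at T48. In iEZR_CA, Pax8 was at 18.8, 33.5 and 14 at ESC, 85.0, 103 and 105 at T24, and 79.5, 76.9 and 86.3 at T48. WT thus had a peak at T24 with low levels on either side. In iEZR_CA, Pax8 rose to a lower T24 level than in WT, and its T24 and T48 libraries overlapped. It was above WT at ESC and T48. The fitted log2 fold change between the lines was 2.47 ± 0.38 at ESC, -2.08 ± 0.11 at T24 and 1.76 ± 0.19 at T48. In WT the step to T24 was 6.60 ± 0.19 and the step on to T48 was -4.13 ± 0.14, against 2.05 ± 0.19 and -0.30 ± 0.14 in iEZR_CA. The WT ESC counts behind these values are 4 to 5 per library, and without iEZR_CA ESC replicate 2 (33.5) the ESC difference was 1.96. With so few counts, the ± 0.19 of the WT step to T24 is likely too small. The WT change from ESC to T48, which uses the same ESC libraries, had ± 0.37. Gm13415, an RNA annotated on the opposite strand that shares 6.06% of the Pax8 exon bases, had normalized counts of 17.8 ± 4.73 (SD, n = 3) in WT T24 and group means of at most 3.36 elsewhere. If counting ignored strand, reads in the shared bases were dropped from both genes. The nearest tested gene on the lower-coordinate side, Psd4, 5606 bases away, had a different pattern: its group means were 41.2, 80.9 and 72.1 in WT and 118, 148 and 148 in iEZR_CA, higher in iEZR_CA at each stage (log2 fold changes of 1.54, 0.89 and 0.99, edgeR adjusted p = 3e-14, 4.7e-09 and 2.8e-10). Gm13418 on the other side had group means of 6.31, 12.7 and 6.82 in WT and 5.94, 4.12 and 4.01 in iEZR_CA, highest in WT T24 as Pax8 was. The fitted line difference of Gm13418 did not pass at ESC (edgeR adjusted p = 0.78) or T48 (edgeR adjusted p = 0.17). At T24 it was -1.51. With means this low elsewhere, Gm13418 may have passed the filter on low counts through WT T24, so its T24 value is a description. Over the 18 libraries, the genes whose log2 values were most like those of Pax8, out of 12801 searched, were Jarid2 (Pearson r = 0.98), a cofactor of the Polycomb repressive complex, Ykt6 (0.97), a SNARE protein, and Trim36 (0.97). Trim36 had group means of 42.2, 383 and 103 in WT and 63.8, 225 and 152 in iEZR_CA. These coefficients, too, are a description.

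Pax3, a regulator of dorsal neural tube and crest (chromosome 1, 78101267 to 78197134, minus strand), was at the edge of detection. Its counts before scaling were 0, 1 and 3 in WT ESC, 0 in all WT T24 libraries and 4, 8 and 4 in WT T48. In iEZR_CA they were 1, 4 and 3 at ESC, 0, 1 and 0 at T24, and 1, 2 and 1 at T48. The 16 counts of WT T48 against 4 of iEZR_CA T48 give a ratio of 4.38 after scaling, with a 95% exact interval of 1.41 to 18 that covers counting error only. Normalized counts in WT T48 were 3.09, 15.3 and 3.27, so replicate 2 stood apart, and Pax3 was not tested.

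Hes3, a HES repressor of neural progenitors and of the isthmic organizer, lies on chromosome 4 (152285972 to 152291662, minus strand, 6 merged exons) and was detected well in WT T24 only. Its counts before scaling were 0, 1 and 0 in WT ESC, 71, 33 and 18 in WT T24 and 6, 2 and 13 in WT T48, which are normalized counts of 45.7, 33.3 and 28.4 at T24 and 4.64, 3.82 and 10.6 at T48. In iEZR_CA there were 0 counts in all ESC libraries, 1, 2 and 1 at T24, and 6, 9 and 5 at T48. WT T24 stood above all other groups, and the lines overlapped at T48. WT T24 exceeded iEZR_CA T24 by a ratio of 30.0 (122 against 4 counts, 95% exact interval 11.4 to 112, counting error only), and exceeded WT T48 by 5.56 (3.48 to 9.30). Hes3 passed the filter on low counts through WT T24, the group where it was high, so its contrasts with that group are a description. In iEZR_CA, T48 exceeded T24 by 4.69 (1.57 to 18.9, 20 against 4 counts, edgeR adjusted p = 0.0069). At T48 the ratio of iEZR_CA to WT was 0.869 (0.447 to 1.69, edgeR adjusted p = 0.76). As with Pax8, the WT level was high at T24 and low at T48.

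Hes5, the Notch-responsive HES gene whose upstream sequence is shown above (chromosome 4, 154960923 to 154962371, plus strand, 2 merged exons), had 3, 2 and 5 counts in WT ESC, 1, 1 and 0 in WT T24 and 2, 0 and 3 in WT T48. In iEZR_CA it had 0, 0 and 1, then 0 in each T24 library, then 0, 2 and 0. No library held more than 5 counts, so Hes5 was scarcely detected at any stage in either line. The 10 counts of WT ESC against 1 of iEZR_CA ESC give a ratio of 8.34, with a 95% exact interval of 1.19 to 362. An opposite-strand RNA, Gm20421, shares 31.8% of the Hes5 exon bases and had at most 1 count in any library. If counting ignored strand, reads in the shared bases were dropped, so the level of Hes5 is uncertain.

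Nes moved unlike the SOX genes. It lies on chromosome 3 (87971078 to 87980451, plus strand, 4 merged exons). Its WT normalized counts were 718, 588 and 542 at ESC, 185, 205 and 191 at T24, and 1087, 1046 and 1015 at T48. In iEZR_CA, Nes was at 1009, 1040 and 1032, then 456, 407 and 374, then 484, 486 and 460. WT thus dipped at T24 and came back above its ESC level, while iEZR_CA dipped from a higher start and stayed below its ESC level at T48. Nes was higher in iEZR_CA by a log2 fold change of 0.75 ± 0.06 at ESC (edgeR adjusted p = 2.1e-14) and 1.09 ± 0.09 at T24 (edgeR adjusted p = 6.8e-15), and it was lower at T48 (-1.13 ± 0.06, edgeR adjusted p = 2.7e-20), with no overlap at any stage. The step from T24 to T48 was 2.44 ± 0.08 in WT (edgeR adjusted p = 2.2e-30) and 0.23 ± 0.07 in iEZR_CA (edgeR adjusted p = 0.0064). The change since ESC differed between the lines at T48 by -1.88 ± 0.09 (interaction, edgeR adjusted p = 1.1e-22), a call kept in every alternative. At T24 the interaction was 0.34 ± 0.11 (edgeR adjusted p = 0.011). That call did not pass without WT ESC replicate 1 or WT T24 replicate 1 (edgeR adjusted p up to 0.064, lowest 0.00037) or with spike-in scaling (0.24, lowest of 6 alternatives 0.0027), and the small iEZR_CA rise did not pass without iEZR_CA T24 replicate 3 (0.071, lowest 0.0011) or with spike-in scaling (0.061, lowest of 7 alternatives 0.0014).

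**Figure D2:**
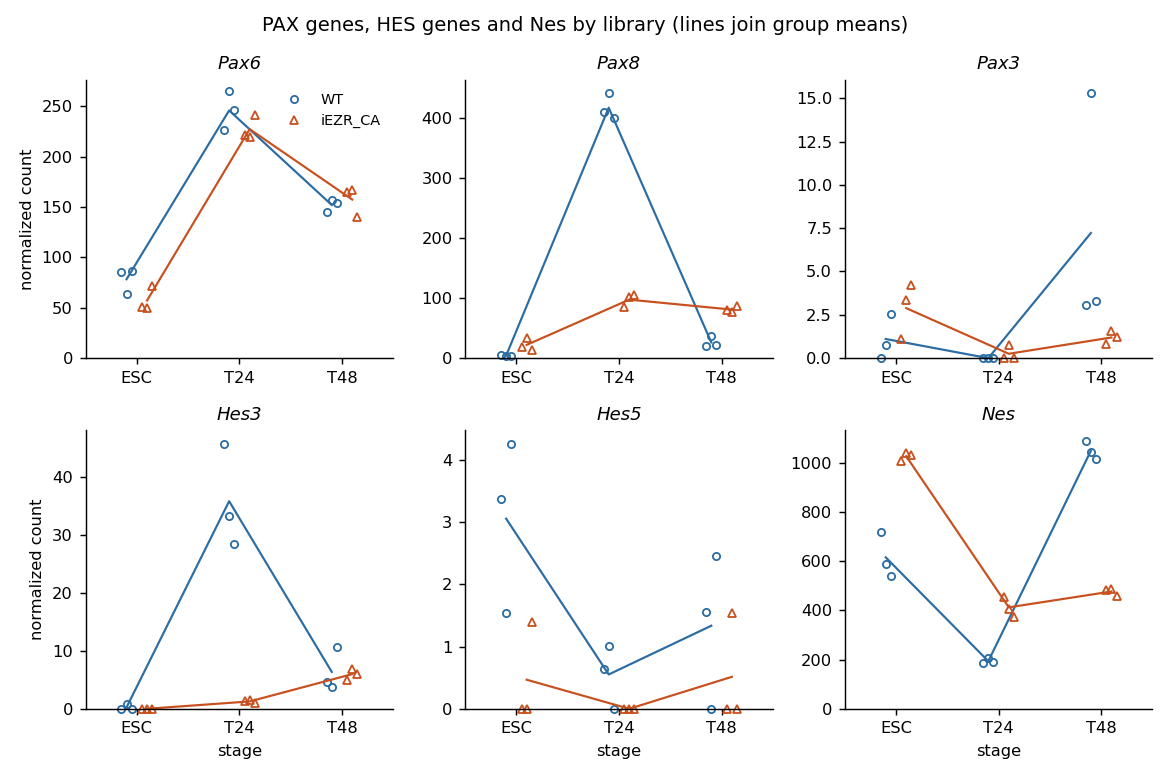
Normalized counts (vertical axis, linear, from 0, a scale of its own in each panel) of Pax6, Pax8, Pax3, Hes3, Hes5 and Nes in each library by stage, with circles for WT, triangles for iEZR_CA and lines joining the means of 3 libraries. WT T24 stands alone for Pax8 (400 to 442) and Hes3 (28.4 to 45.7), the lines overlap for Pax6, and Nes has its lines in opposite order at T24 and T48.

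Set side by side over the members other than Pax8, the line difference had a common direction among SOX genes. At ESC, 4 of the 7 tested genes (Sox1, Sox3, Sox11 and Pax6) were lower in iEZR_CA and 1 (Nes) was higher, where 28.1% of all 18469 tested genes were called lower and 26.4% higher. At T24, 5 were lower (Sox1, Sox3, Sox4, Sox11 and Hes3) and 1 (Nes) higher, against 30.1% and 30.8% of all tested genes. At T48, 5 were lower (Sox1, Sox3, Sox4, Sox11 and Nes) against 30.1%, and 0 were higher against 31.0%, by edgeR, with 0 also at an unadjusted p under 0.05, by DESeq2 and by limma voom. Hes3 passed the filter through WT T24, the group where it was high, so these counts are a description.

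**Figure D3:**
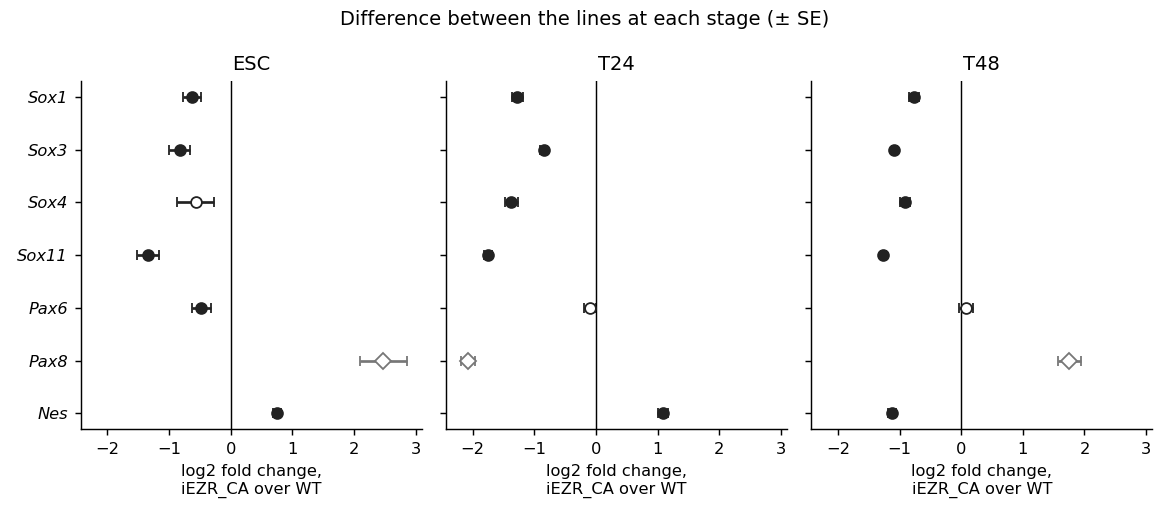
Log2 fold change of iEZR_CA over WT (horizontal axis) with its standard error at ESC, T24 and T48. Filled circles passed the edgeR test, open circles did not, and grey diamonds mark Pax8, which was not tested. The 4 SOX genes lie left of 0 at each stage, Nes changes side between T24 (1.09) and T48 (-1.13), and Pax8 is right of 0 at ESC and T48 and left of it at T24.

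Within WT, 6 members rose from ESC to T24 (Sox1, Sox3, Sox4, Sox11, Pax6 and Hes3) and Nes fell, against 31.8% and 33.6% of all tested genes. From T24 to T48 in WT, 4 rose (Sox3, Sox4, Sox11 and Nes) and 2 fell (Pax6 and Hes3), against 32.8% and 32.9%. For Hes3, which passed the filter through WT T24, both counts are a description. Within iEZR_CA, 5 rose to T24 (Sox1, Sox3, Sox4, Sox11 and Pax6) and 1 (Nes) fell, against 27.1% and 28.9%. From T24 to T48 in iEZR_CA, 6 rose (Sox1, Sox3, Sox4, Sox11, Hes3 and Nes) and 1 (Pax6) fell, against 29.6% and 30.0%. The 4 SOX genes and Pax6 thus kept the direction of the step to T24 in both lines. Interactions were fewer: at T24, 1 was upward (Nes) and 1 downward (Sox1), against 21.5% and 16.9% of all tested genes, and at T48, 1 was upward (Pax6) and 1 downward (Nes), against 25.7% and 20.0%.

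**Figure D4:**
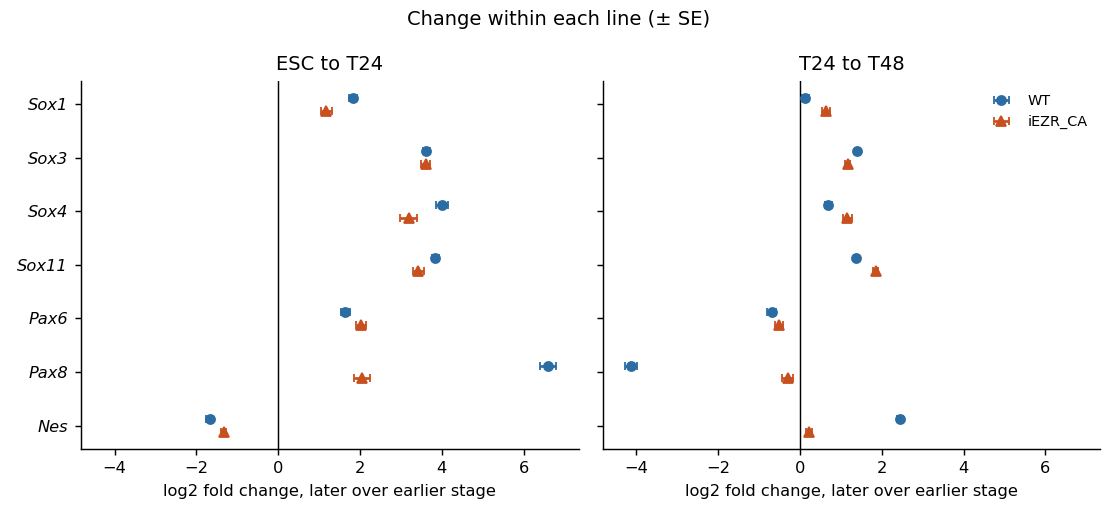
Log2 fold change within each line from ESC to T24 and from T24 to T48 (horizontal axis, later over earlier stage) with its standard error, circles for WT and triangles for iEZR_CA. The lines lie close together for Sox3 in the step to T24 (3.62 and 3.60), and far apart for Pax8 in both steps and for Nes in the step to T48 (2.44 and 0.23).

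The levels of iEZR_CA T48 can be set beside those of WT T24. Mean normalized counts (± SD, n = 3) were 1051 ± 7.08 and 834 ± 69.3 for Sox3, 864 ± 75.1 and 987 ± 95.1 for Sox4, 1034 ± 46.2 and 961 ± 42.3 for Sox11, and 275 ± 13.3 and 421 ± 41.2 for Sox1. Libraries of the 2 groups overlapped for Sox4 and Sox11 and were separate for Sox1 and Sox3. Pax8 was 80.9 ± 4.86 in iEZR_CA T48 and 417 ± 21.9 in WT T24, Hes3 5.98 ± 0.953 and 35.8 ± 8.94, and Nes 477 ± 14.4 and 193 ± 10.3. The stages differ between these groups, so the values are set side by side with no test.

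Levels of different genes were compared per kilobase of exon, on the scale of normalized counts per kb. In WT ESC, Nes was highest (96.0), followed by Sox3 (33.1), Sox1 (24.7) and Sox4 (13.1), and Sox11 (7.90) and Pax6 (6.70) overlapped. In WT T24 the order was Sox3 (404), Sox4 (206), Sox11 (116), Sox1 (87.1) and Pax8 (68.9), each separate from the next. In WT T48 it was Sox3 (1074), Sox4 (334) and Sox11 (298), which overlapped with Sox4, then Nes (164) and Sox1 (98.0). In iEZR_CA T48 the order was the same for these 5 genes, at 509, 180, 124, 74.3 and 57.0. Sox3 was the highest member per kb in both lines at T24 and T48, and Nes at ESC.

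The rest of the Notch pathway was read from a list of 21 genes, of which 20 were tested. At ESC, 3 were higher and 9 lower in iEZR_CA, at T24 7 and 6, and at T48 5 and 13, with median log2 fold changes of -0.26, 0.27 and -0.48. Of all tested genes, 26.4% were called higher and 28.1% lower at ESC, 30.8% and 30.1% at T24, and 31.0% and 30.1% at T48, the shares against which the counts of this and the following lists stand. A gene that passed the filter on low counts only through the group where it was high could be called there in a single direction. The lists were also chosen with earlier results of these data known, so their counts are a description. Hes1, the Notch-responsive repressor related to Hes5, had group means of 1414, 86.7 and 373 in WT and 1266, 254 and 77.2 in iEZR_CA. Its line difference was 1.51 at T24 (edgeR adjusted p = 2e-07) and -2.34 at T48 (edgeR adjusted p = 1.5e-10), so Hes1, like Nes, was higher in iEZR_CA at T24 and lower at T48. Lfng, which modifies Notch receptors, was lower in iEZR_CA at ESC (-1.91, edgeR adjusted p = 4.8e-08) and T48 (-1.92, edgeR adjusted p = 2e-22), with means of 279 and 70.6 at T48. Hey1, another Notch target, was higher at T24 (11.4 and 58.9 in WT and iEZR_CA, 2.47, edgeR adjusted p = 3.5e-14), and Maml2, a Notch co-activator, was lower there (125 and 18.7, -2.64, edgeR adjusted p = 3.9e-15).

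Of 26 other neuroectoderm genes, 22 were tested: 2 were higher and 16 lower in iEZR_CA at ESC, 8 and 10 at T24, and 3 and 13 at T48 (medians of -0.63, -0.22 and -0.39). Among the 13 was Fabp7, chosen here after its values were seen, with means of 13.7 in WT T48 and at most 0.467 elsewhere. Such a gene could be called at T48 only as lower, so the count of 13 is a description. Gbx2, a hindbrain and formative epiblast factor, had means of 404, 986 and 2075 in WT and 260, 225 and 302 in iEZR_CA, a T48 difference of -2.76 (edgeR adjusted p = 2.1e-28). Olig3 (-1.93, edgeR adjusted p = 2.7e-13) and Pou3f2 (-2.12, edgeR adjusted p = 1.8e-08), both progenitor transcription factors, were lower at T48, with WT means of 78.4 and 27.4. Hesx1, a forebrain and pituitary factor, was higher at ESC (0.53, edgeR adjusted p = 0.0066) and had means of 1.10 and 6.99 at T24, where no WT library exceeded 3 counts.

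Of 20 proneural and neuronal genes, 18 were tested: 1 was higher and 10 lower in iEZR_CA at ESC, 3 and 7 at T24, and 2 and 14 at T48 (medians of -1.15, -0.69 and -1.97). Insm1, a neuronal progenitor factor, had means of 2.53, 364 and 856 in WT and 1.49, 68.7 and 207 in iEZR_CA (T48 difference -2.07, edgeR adjusted p = 2.9e-33). Gap43, a growth cone protein, had means of 381 in WT T48 and 64.6 in iEZR_CA T48 (-2.52, edgeR adjusted p = 5.2e-29). Dcx, a microtubule protein of young neurons, was at 0 in all WT ESC and T24 libraries and had means of 62.4 and 3.08 at T48. Elavl4, an RNA-binding protein of neurons, differed by -2.40 at T24 (edgeR adjusted p = 7.1e-14) and by -0.34 at T48 (edgeR adjusted p = 0.042). Neurod4, Nhlh1 and Neurog1, chosen here after their values were seen, were likewise highest in WT T48 (means of 13.4, 29.3 and 16.2, with means of at most 8.03 in any other group). Genes of this kind could be called at T48 only as lower, so the count of 14 is a description.

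Among 15 other SOX genes (12 tested), 1 was higher and 7 lower at ESC, 2 and 3 at T24, and 2 and 6 at T48. The 6 included Sox30, chosen here after its values were seen, with means of 9.81 in WT T48 and at most 2.82 elsewhere. It could be called at T48 only as lower, so the count of 6 is a description. Sox12, the remaining SoxC gene, shared the direction of Sox4 and Sox11, with means of 1368, 3043 and 3903 in WT and 630, 1425 and 2785 in iEZR_CA (-1.11 at ESC, -1.12 at T24 and -0.50 at T48, edgeR adjusted p = 1e-05, 1e-06 and 0.00086). Sox13 was also lower at each stage (-0.49, -0.53 and -0.88, edgeR adjusted p = 1.8e-08, 1.3e-08 and 9.8e-15), and Sox18, an endothelial factor, was lower at ESC (-1.78, edgeR adjusted p = 1.2e-06) and T48 (-1.99, edgeR adjusted p = 1.1e-10). Sox21, a SoxB2 factor, was higher at T24 (0.92, edgeR adjusted p = 3.1e-26) and T48 (1.82, edgeR adjusted p = 9.3e-22), with means of 1103, 808 and 54.7 in WT and 936, 1524 and 189 in iEZR_CA. The SOX family thus did not move as a block.

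Of 6 other PAX genes, 3 were tested. None was called at ESC, where edgeR gave 0 in either direction, 1 was higher at T24, and 1 was higher and 1 lower at T48. Pax1, a sclerotome and pharyngeal pouch factor, had means of 3.29, 10.2 and 2.61 in WT and 1.12, 55.1 and 26.3 in iEZR_CA (2.45 at T24, edgeR adjusted p = 3.5e-12), and no WT T48 library exceeded 3 counts. Of 4 other HES genes, 2 were tested, Hes1 and Hes6. Hes6, a HES protein that favours neuronal differentiation, had means of 230, 439 and 1257 in WT and 222, 426 and 979 in iEZR_CA, and was lower at T48 only (-0.36, edgeR adjusted p = 5e-08, against 0.69 and 0.44 at ESC and T24).

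Of 12 neural border and crest genes, 8 were tested: 2 were higher and 4 lower at ESC, 1 and 3 at T24, and 4 and 2 at T48. Tfap2a was higher in iEZR_CA at each stage (2.41, 2.64 and 2.09, edgeR adjusted p = 3.7e-43, 1.5e-39 and 1.2e-28), with means of 265, 119 and 80.2 in WT and 1411, 727 and 331 in iEZR_CA. Foxd3, also a pluripotency factor, had means of 1328, 3265 and 1722 in WT, highest at T24, and 1695, 1840 and 1937 in iEZR_CA, with a T24 difference of -0.84 (edgeR adjusted p = 1.9e-30). Msx2 was lower at ESC (-0.69, edgeR adjusted p = 7.9e-06) and higher at T48 (0.99, edgeR adjusted p = 0.023), the latter from means of 7.17 and 13.0, and Gbx2, which is on this list too, is given above.

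Thyroid and kidney genes known from the tissues of Pax8 were read as a list of 13, of which 8 were tested: 2 were higher and 2 lower at ESC, 3 and 2 at T24, and 3 and 5 at T48. Wt1, a kidney and gonad factor, rose through both steps in both lines (edgeR adjusted p = 4e-50 and 1.6e-38 in WT, 1.4e-13 and 6.4e-51 in iEZR_CA), with means of 40.3, 877 and 2416 in WT and 12.4, 57.2 and 1136 in iEZR_CA (T24 difference -3.89, edgeR adjusted p = 1.5e-47). Slc5a5, the sodium-iodide symporter and a known Pax8 target in thyroid, had means of 23.8, 167 and 536 in WT and 31.7, 121 and 291 in iEZR_CA. In WT it rose from ESC to T24 (2.80, edgeR adjusted p = 1.1e-26), the step over which Pax8 rose from 4.19 to 417. It also rose from T24 to T48 (1.65, edgeR adjusted p = 1.2e-27), the step over which Pax8 fell from 417 to 26.2. A link between Slc5a5 and Pax8 was not tested. Gata3 was higher in iEZR_CA at each stage (2.29, 2.54 and 3.60, edgeR adjusted p = 2.6e-21, 1.9e-27 and 1e-29).

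**Figure D5:**
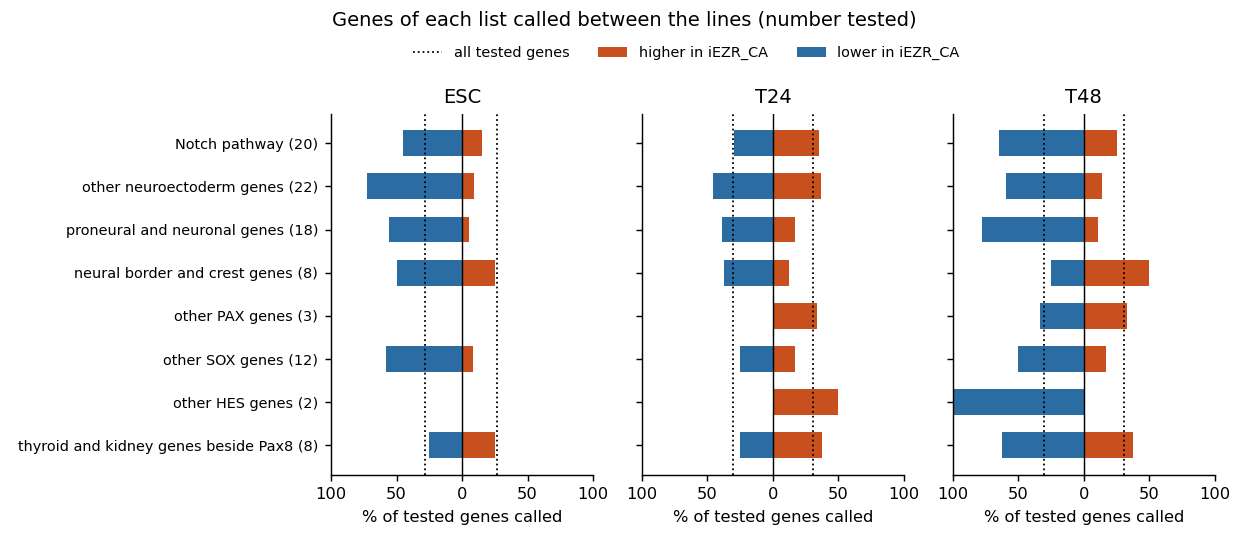
Share of each list's tested genes (number in parentheses) that was called lower (left, blue) or higher (right, orange) in iEZR_CA than in WT at ESC, T24 and T48, with dotted lines at the shares of all 18469 tested genes. The proneural and neuronal list has 14 of 18 genes on the lower side at T48, and the Notch list 13 of 20. Some listed genes were high in WT T48 only and could be called there only as lower, so the shares are a description.

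Markers of other cell types that exit cultures can hold were read as well. The 8 ES cell markers had 0 higher and 6 lower at ESC, 6 and 1 at T24, and 6 and 2 at T48. Of 8 primitive streak and mesoderm markers, 7 were tested and 1 was higher and 3 lower at ESC, 4 and 0 at T24, and 2 and 0 at T48. Of 8 primitive endoderm markers, all tested, 4 were higher and 2 lower at ESC, 3 and 0 at T24, and 1 and 5 at T48. Of 8 trophoblast markers, 7 were tested and 4 were higher and 2 lower at ESC, 4 and 0 at T24, and 3 and 3 at T48. The summed streak markers were between 143 and 159 normalized counts in WT T24 and between 182 and 218 in iEZR_CA T24, and between 150 and 159 in WT T48 and 280 and 306 in iEZR_CA T48. Most of these streak sums was Eomes, also a trophoblast marker, with means of 107 in WT T48 and 237 in iEZR_CA T48. Eomes and Foxa2 were called at T48, while T, Mixl1, Gsc, Evx1 and Tbx6 did not pass there. Those called at T24 (Mixl1, Gsc, Evx1 and Tbx6) had WT T24 means of 1.72 to 4.83, near the floor. Summed primitive endoderm markers ran from 3320 to 3429 in WT T24, 7136 to 7275 in iEZR_CA T24, 2744 to 2859 in WT T48 and 2629 to 2831 in iEZR_CA T48. Most of these sums was Sparc, with means of 3076 in WT T24 and 6393 in iEZR_CA T24. The markers called higher at T24 were Sparc, Lama1 and Dab2, while Gata4, Gata6, Sox17, Sox7 and Pdgfra did not pass there. The part of these markers in the neural gene differences was not tested.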

How the data were processed

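Per the study's methods and the labels, polyA RNA of mouse ES cell cultures was sequenced, reads were trimmed with Trim Galore 0.6.5 and aligned with GSNAP to mm10 (GRCm38), and the authors counted reads per gene in HTSeq with the annotation of Ensembl release 81. What was deposited is a table of raw whole-number counts for 53801 genes and 92 spike-in sequences. HTSeq drops reads that align to several places or to overlapping genes, and whether strand was used is not given in the sources used here. Reads outside genes (21.3% to 24.3% of a library) were left out.

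Counts were tested in R 4.3.3 with edgeR 4.0.16: filterByExpr by group, TMM, a term for each of the 6 groups over 18 libraries, robust quasi-likelihood F tests, and p-values adjusted by Benjamini-Hochberg over 18469 genes (threshold 0.05). Each standard error is the absolute log2 fold change over the square root of F. This is an approximation that is likely too small where a fold is large and 1 group has few counts. Normalized counts used DESeq2 1.42.0 size factors. Where no library of a group exceeded 3 counts, raw count ratios with exact binomial intervals, adjusted for size factors, replace fitted folds. Intervals cover counting error only. Replicates were checked against sampling noise, and all 18 pairs differed by more. The analysis was tested on simulated data.

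Members and gene lists were chosen with earlier results of these data known. Named were the members, their nearest tested neighbours (values only where they bear on a member), Ezr, the 3 genes most like Sox1 and Pax8 (mean of at least 50 normalized counts, log2 with a pseudocount of 1), and up to 4 genes per list with the largest called line difference at T24 or T48, among genes with a mean of at least 50 normalized counts in 1 or more groups. A gene that this rule names is not reported here. Coordinates and exon lengths are from GENCODE M21, which held 53706 of the identifiers. Promoters are from RefSeq, which matched 7 of the 10 members. Alternatives were other size factors, spike-in scaling, DESeq2, limma 3.58.1 voom, 2 other filters, fits of only the groups compared, and each library left out.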

Additional observations from a re-analysis of the deposited data

Results flagged for a closer look

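In 4 cases the change since ESC differed between the lines by the interaction test (edgeR adjusted p over all tested genes). Of all tested genes, 21.5% had an upward and 16.9% a downward interaction at T24, and 25.7% and 20.0% at T48. The rise of Sox1 from ESC to T24 was smaller in iEZR_CA, a log2 difference of -0.64 (edgeR adjusted p = 0.0025), with all 3 iEZR_CA libraries at T24 below all 3 WT libraries. That call did not pass with spike-in scaling (adjusted p = 0.073, where the lowest of the 6 alternatives was 0.0011) and held with each library left out. Pax6 changed by 0.56 more in iEZR_CA from ESC to T48 (edgeR adjusted p = 0.012), with overlapping libraries at both stages. It did not pass with spike-in scaling (adjusted p = 0.16, lowest of 6 alternatives 0.0099), nor without WT ESC replicate 3 or iEZR_CA ESC replicate 2 (adjusted p up to 0.083, and as low as 0.0025 without another library). Nes fell less in iEZR_CA from ESC to T24, by 0.34 (edgeR adjusted p = 0.011), which did not pass with spike-in scaling (0.24, lowest of 6 alternatives 0.0027), nor without WT ESC replicate 1 or WT T24 replicate 1 (adjusted p up to 0.064, and as low as 0.00037 without another library). From ESC to T48, Nes rose in WT by 0.77 and fell by 1.10 in iEZR_CA, a difference of -1.88 (edgeR adjusted p = 1.1e-22), and the libraries of the lines were in opposite order at the 2 stages. This difference passed in each of 6 alternatives and with each library left out.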

How the results depend on the processing

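The alternatives changed some counts of members called. Members lower in iEZR_CA at ESC numbered 5 in place of 4 under DESeq2, where Sox4 joined, and 3 with spike-in scaling, where Pax6 left. Sox4 also joined them without the filter on low counts and in a fit of the ESC libraries alone. Members that rose from T24 to T48 in WT numbered 5 in place of 4 under DESeq2. Downward interactions at T24 numbered 2 in place of 1 under DESeq2, without the filter on low counts and with the strict filter (Sox4 joined Sox1), and under limma voom (Hes3 joined). With spike-in scaling, upward interactions numbered 0 at T24 and 0 at T48, in place of 1 each. With the strict filter, which removed Hes3, 1 member fell from T24 to T48 in WT, in place of 2. With each library left out, downward interactions at T24 ran from 1 to 2, upward ones at T24 from 0 to 2 and at T48 from 0 to 1. Members lower in iEZR_CA at ESC then ran from 3 to 4. Members that rose from T24 to T48 ran from 4 to 5 in WT and from 5 to 6 in iEZR_CA. The Ezr ratio was 2.18, 2.83 and 1.68 at ESC, T24 and T48 with spike-in scaling, and 1.57 to 1.64 at T48 with a library left out. Only values near 0 changed sign. The Sox3 interaction at T24 became 0.025 with spike-in scaling and 0.0055 without the filter, and ran from -0.094 to 0.069 over the libraries left out, and the Sox11 interaction at T48 ran from -0.10 to 0.25. Where not stated, the cause was not tested. Spike-in scaling moved the median line difference by at most 0.07. No paired analysis was possible because the labels give no replicate numbers. Depth limits Pax3, Hes5, Hes3 outside WT T24, and Pax8 in WT ESC.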

Other observations

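Of the 20 nearest tested neighbours of the members on the chromosome, 3 were higher and 3 lower in iEZR_CA at ESC, 5 and 3 at T24, and 5 and 4 at T48, by edgeR, against 26.4% and 28.1%, 30.8% and 30.1%, and 31.0% and 30.1% of all tested genes. Gpr153, 635 bases from Hes3, had group means of 45.6, 65.0 and 50.8 in WT and 17.5, 55.3 and 49.4 in iEZR_CA, and was lower in iEZR_CA at ESC (log2 fold change -1.39, edgeR adjusted p = 4.6e-07), the stage at which no library held more than 1 Hes3 count. Gm14662, 223 bases from Sox3, had group means of 1.08, 4.26 and 28.9 in WT and 0.467, 3.16 and 17.2 in iEZR_CA. Elp4, 3663 bases from Pax6, stayed between 518 and 627 in all group means, and its line differences did not pass at any stage (edgeR adjusted p = 0.23, 0.26 and 0.065). Sox1ot, which spans Sox1 on the same strand without sharing exon bases, had group means of 3.76, 26.1 and 17.5 in WT and 3.07, 13.5 and 21.4 in iEZR_CA.

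Within the Notch list, Dll1, a ligand chosen here after its values were seen, had means of 6.01, 741 and 1652 in WT and 0.467, 241 and 964 in iEZR_CA. Its fitted log2 fold changes between the lines were -1.62 at T24 and -0.76 at T48, given as a description because of that choice. Rbpj, the DNA-binding partner of the Notch receptor and also chosen after its values were seen, had means of 2458, 7702 and 1665 in WT and 2612, 6460 and 4027 in iEZR_CA, highest at T24 in both lines.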
